A study of Mus musculus with 15 samples.

Results

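The skin healed over 15 mm full-thickness excisional wounds that had been filled with stem cell-laden beads was compared with normal skin, across all genes. The samples were chosen by the names of their columns in the deposited table, and they are 3 HDB 15 mm libraries and 3 normal libraries, 6 of the 15 libraries in the series. All mice were male balb/c animals of wild-type genotype, 4 to 6 weeks old. HDB denotes high cell density beads, in which human umbilical cord mesenchymal stem cells (MSCs) were encapsulated in Matrigel, a basement membrane gel, and jetted onto the wound bed with acellular beads filling the gaps under a transparent dressing. The wound took away about 35% of the dorsal skin. Healed skin was collected after 4 weeks of implantation according to the sequencing methods, while day 21 is given as the end of the wound experiment. Normal skin had no wound, no beads and no MSCs, so the contrast holds the wound, the Matrigel and the MSCs together. The acellular 15 mm group (the same wound with beads lacking cells, n = 3) and the HDB and acellular 10 mm groups (n = 3 each) are given beside it only where they show where this skin differs. Nothing in the labels says that the 3 libraries of a group came from separate animals, so that p-values measure only the spread between these samples, which may be technical.

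Skin is built from an epidermis of stratified keratinocytes, a collagen-rich dermis with vessels and fibroblasts, a fat layer and, in the mouse, a thin sheet of skeletal muscle called the panniculus carnosus. Hair follicles cycle through growth (anagen), regression and rest, and the keratins of the hair shaft and of its inner root sheath are made only while a follicle grows. After injury, keratinocytes at the wound edge switch to stress keratins, fibroblasts lay down a provisional matrix rich in tenascin and periostin, and this matrix is later remodelled by proteases. Skin cells also carry a circadian clock, in which ARNTL and CLOCK switch on the Per and Cry repressors and the output factors DBP, TEF and HLF.

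The 6 libraries held 15840551 to 17042219 estimated counts each. Levels are given as CPM, counts relative to library size after scaling by edgeR's TMM factors. The defining keratins of the epidermis were present in every library, with Krt5 at 2225 to 6612 CPM. Pearson correlations of log2 CPM across genes were 0.983 to 0.989 between normal libraries and 0.961 to 0.975 between HDB 15 mm libraries. HDB replicate 2 stood apart, with correlations of 0.955 to 0.963 with normal skin against 0.913 to 0.926 for HDB replicates 1 and 3. Of the genes called below, this replicate was the HDB library nearest to the normal mean in 74.87%, compared with 55.91% of all genes tested.

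In the edgeR fit over all 5 groups, 796 of 15369 genes differed between HDB 15 mm and normal skin at an adjusted p under 0.05 (5.18% of genes tested), of which 411 were higher (2.67%) and 385 lower (2.51%) in HDB skin. A log2 fold change of at least 1 was reached by 234 of the higher and 158 of the lower genes, and 46 rose and 10 fell by 3 or more on the log2 scale. When only the 2 groups were fitted, so that the wider spread of the other wound groups no longer entered, 3401 of 14880 genes were called (22.9%), 1719 higher (11.6%) and 1682 lower (11.3%), and 793 genes were called in both fits. The CPM ranges of the groups did not overlap in 46.4% of all genes tested, and in each of the 796 called genes. Before adjustment, edgeR gave 4133 of the 15369 genes a p under 0.05, the share to set beside such counts in the lists below. The number of calls rested on single libraries. It fell to 56, 43, 43, 134 and 34 without HDB replicate 1, HDB replicate 3 and normal replicates 1, 2 and 3 in turn, and it was 1340 without HDB replicate 2. Counts given below for lists with a library left out stand beside these totals. Of 117 genes chosen by a naming rule that in part takes called genes, 71 were called, and 7 of these kept their call in every setting tried, namely Lrrc15, Adamts4, Tnc, Adam12, Per1, Cry2 and Arntl.

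**Figure D1:**
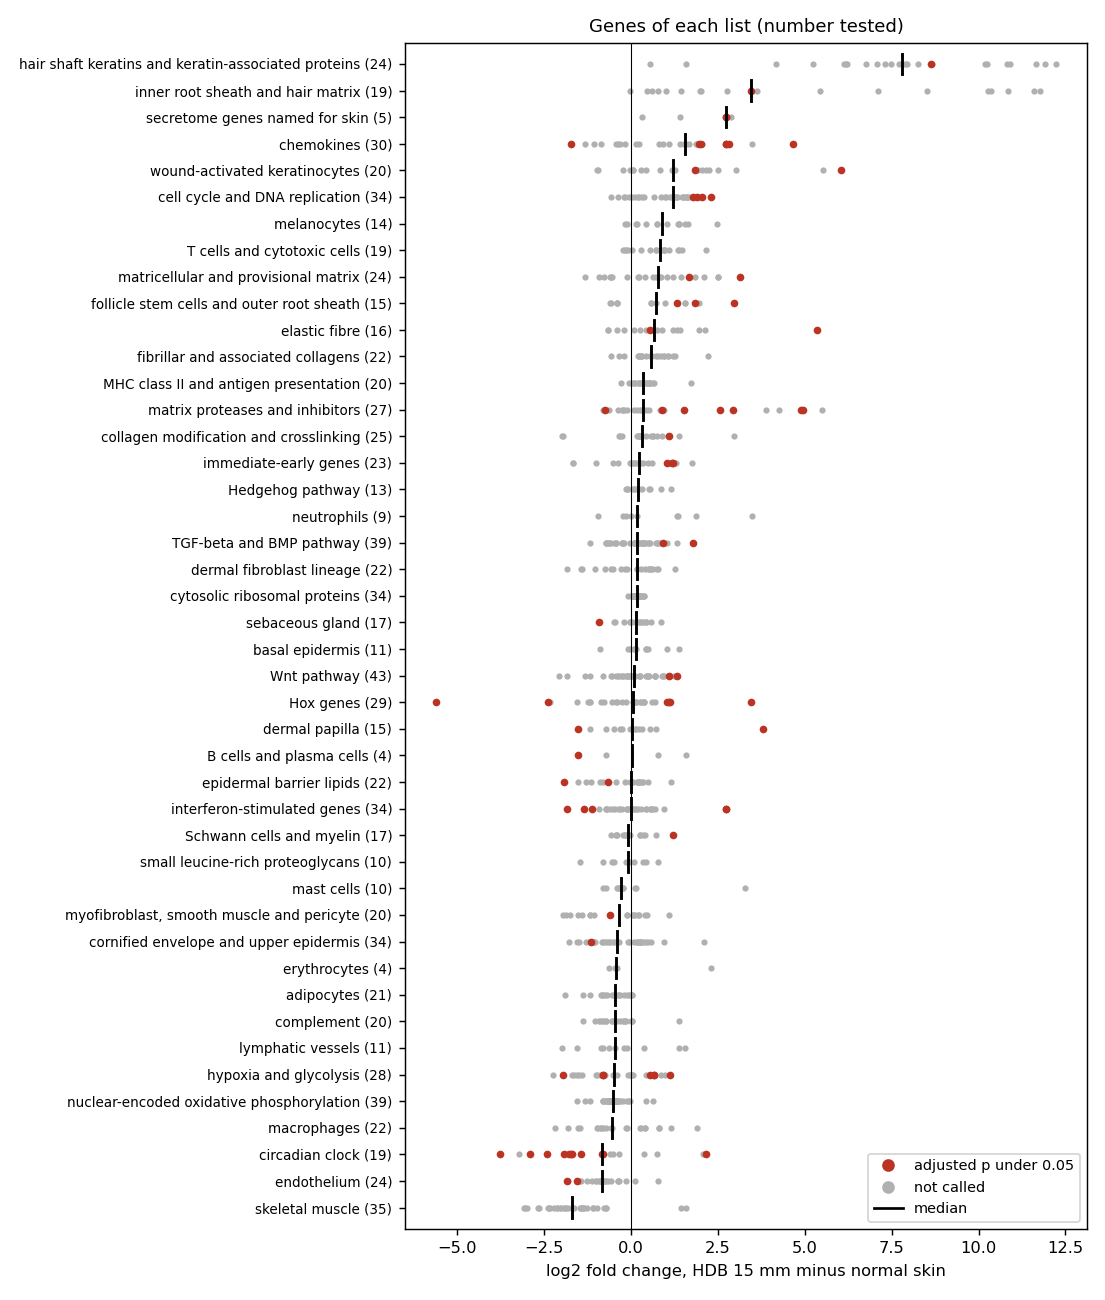
Each point is a gene of the list named at the left, with the number of genes tested in parentheses, placed by its log2 fold change between HDB 15 mm and normal skin from the edgeR fit over 5 groups (red, adjusted p under 0.05; grey, not called; black bar, median). The median of skeletal muscle lies farthest to the left at -1.71, the hair shaft list, whose position was largely fixed by the filter on low counts, lies farthest to the right at 7.79 (6.18 with genes of few normal counts at their floor), and called genes are most frequent among circadian clock genes.

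The gene lists show how the difference was distributed over the tissue. The median log2 fold change of all genes tested was 0.0186. In 18 of the 43 lists, edgeR called 0 genes in the 5-group fit. The circadian clock list held the most calls (11 of 19), followed by the matrix protease, chemokine and glycolysis lists with 7 each. In the plot of gene lists, most members of the muscle and endothelium lists fall on 1 side of zero although few were called.

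Circadian clock genes held more calls than any other list. Of 19 clock genes tested, 1 rose and 10 fell, against 5.18% of all genes called in either direction, and with only the 2 groups fitted 3 were higher and 12 lower (11.6% and 11.3% of all genes). Arntl (chr7:113178471-113314126, GRCm38.p6), the activator also known as Bmal1, was at 49.8, 55.5 and 47.2 CPM in HDB skin and 10.8, 10.3 and 12.9 CPM in normal skin. The lowest HDB library thus lay far above the highest normal library, and the log2 fold change was 2.16 (standard error 0.31) with an edgeR adjusted p of 0.00698. Its relative Npas2, which can take the place of CLOCK, had 10.9, 14.8 and 13.7 CPM against 3.51, 3.28 and 2.62 CPM but missed the threshold (log2 2.06, standard error 0.56, edgeR adjusted p = 0.0522). Clock itself was at 80.7, 109 and 79.2 CPM against 64.4, 69.4 and 75.7 CPM and was not called.

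The repressors lay on the other side. Per1 (chr11:69095108-69109965), a period gene, was at 31.3, 33.0 and 39.7 CPM in HDB skin and 149, 98.4 and 95.2 CPM in normal skin. All HDB values were close together and under the lowest normal value by a wide margin, for a log2 fold change of -1.72 (standard error 0.19) and an edgeR adjusted p of 0.00214. Per3 had 15.9, 11.9 and 15.4 CPM against 105, 123 and 98.8 CPM (log2 -2.92, standard error 0.54, edgeR adjusted p = 0.0216). Cry2 (chr2:92403646-92434085), a cryptochrome that pairs with the period proteins, fell from 89.7, 80.4 and 78.5 CPM in normal skin to 31.9, 31.6 and 28.0 CPM in HDB skin (log2 -1.44, standard error 0.20, edgeR adjusted p = 0.00688). The third period gene, Per2, had 7.03, 10.5 and 9.60 CPM against 94.3, 91.4 and 68.2 CPM, yet it was not called in the 5-group fit (edgeR adjusted p = 0.0536) and was called with the 2 groups alone (edgeR adjusted p = 0.00138). Cry1, Ciart, Nr1d1 and Bhlhe41 were also lower on average and were not called.

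The output factors of the clock, which bind D-box sequences, fell as well. Dbp (chr7:45705100-45710203) was at 13.3, 4.85 and 7.85 CPM in HDB skin and 124, 139.9 and 90.1 CPM in normal skin, so that even the highest HDB library was far under the lowest normal library (log2 -3.77, standard error 0.79, edgeR adjusted p = 0.0290). Tef, of the same family, had 105, 87.8 and 88.2 CPM against 517, 502 and 477 CPM (log2 -2.41, standard error 0.42, edgeR adjusted p = 0.0172). Hlf, the remaining PAR bZIP member, had 21.7, 10.9 and 14.7 CPM against 60.7, 67.1 and 54.0 CPM (log2 -1.94, standard error 0.42). Nuclear receptors that act on the Arntl promoter were lower too. Nr1d2 had 99.0, 72.3 and 84.4 CPM against 286, 263 and 277 CPM and Rora 118, 119 and 109 CPM against 229, 181 and 197 CPM, and both were called, as was Bhlhe40, a repressor that competes for E-boxes (log2 -0.84, standard error 0.22).

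Promoters of clock genes whose letters include the sites of these factors are shown because activators and outputs of the clock are known to act through them. RefSeq promoters (GRCm38.p6, 250 bases before to 50 bases after the start) were matched for 16 of the 19 genes tested. The E-box CACGTG, to which ARNTL and CLOCK bind, was found in 6 of their 21 promoters, those of 5 genes, while 7.15% of 32851 promoters of the same length hold it. The D-box was searched as TTATGTAA or TTATGCAA on both strands and was found in 2 of the 21 promoters, compared with 1.66% of all promoters. Both letter strings are set in capitals in the promoters below, on the strand of the gene: Per1 at chr11:69098699-69098998 (plus strand), Per3 at chr4:151044616-151044915 (minus strand) and Tef at chr15:81802423-81802722 (plus strand).
Per1: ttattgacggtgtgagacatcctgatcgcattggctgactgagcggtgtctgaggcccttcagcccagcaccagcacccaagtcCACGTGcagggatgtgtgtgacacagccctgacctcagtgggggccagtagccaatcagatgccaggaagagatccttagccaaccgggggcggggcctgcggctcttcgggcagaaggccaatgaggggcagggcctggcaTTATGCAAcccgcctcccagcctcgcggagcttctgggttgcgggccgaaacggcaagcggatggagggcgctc
Per3: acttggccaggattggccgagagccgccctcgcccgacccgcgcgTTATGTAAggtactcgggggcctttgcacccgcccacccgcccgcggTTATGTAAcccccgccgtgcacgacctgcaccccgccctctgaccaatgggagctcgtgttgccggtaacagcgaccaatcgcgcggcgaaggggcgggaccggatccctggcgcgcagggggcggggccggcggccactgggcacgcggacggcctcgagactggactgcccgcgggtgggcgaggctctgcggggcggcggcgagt
Tef: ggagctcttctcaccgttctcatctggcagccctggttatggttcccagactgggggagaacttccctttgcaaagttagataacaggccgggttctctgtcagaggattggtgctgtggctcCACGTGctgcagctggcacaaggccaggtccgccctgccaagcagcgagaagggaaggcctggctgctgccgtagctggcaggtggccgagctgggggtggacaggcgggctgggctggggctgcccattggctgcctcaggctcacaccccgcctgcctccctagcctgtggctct
Per1 holds 1 E-box and 1 D-box, Per3 holds 2 D-boxes and Tef holds 1 E-box in this window. Such a match is a description of letters and no evidence of binding, and the windows of Dbp, Cry2, Arntl, Nr1d2 and Hlf held no match.

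**Figure D2:**
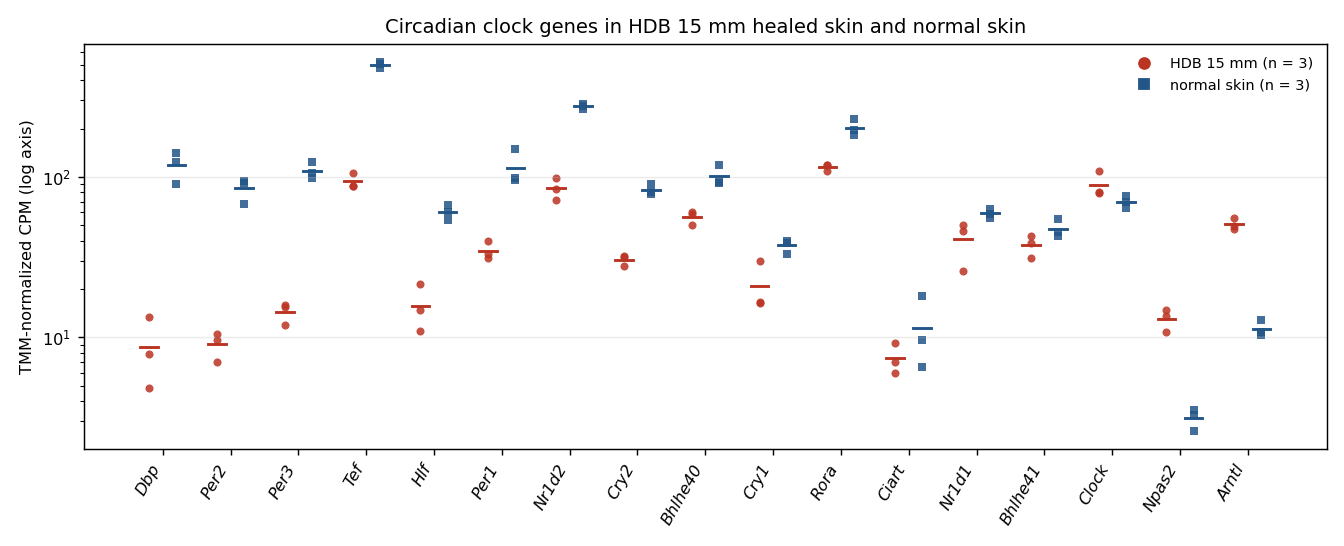
CPM on a log axis for the circadian clock genes described in the text, ordered from the lowest to the highest log2 fold change (circles, 3 HDB 15 mm libraries; squares, 3 normal libraries; bars, group means). Dbp, Per2, Per3 and Tef lie lower in all HDB libraries than in any normal library, while Arntl and Npas2 lie higher.

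The clock calls were reduced but not lost when a library was left out, with 3, 9, 3, 3, 4 and 3 genes called without HDB replicates 1, 2 and 3 and normal replicates 1, 2 and 3, respectively. In acellular 15 mm and HDB 10 mm skin, whose comparisons share the normal libraries with this one, levels were near those of HDB 15 mm skin. Arntl was at 43.9 ± 15.8 CPM in acellular 15 mm skin (SD, n = 3) and 46.1 ± 5.29 CPM in HDB 10 mm skin, and Dbp at 10.4 ± 5.45 and 11.5 ± 1.05 CPM. In acellular 10 mm skin, Per1 was at 87.1, 86.3 and 67.5 CPM, between the HDB 15 mm and the normal libraries. Its replicate 1 lay nearer to normal skin than its other libraries did, with Dbp at 83.0, 9.55 and 10.2 CPM, Per3 at 69.6, 14.9 and 16.6 CPM and Tef at 309, 96.0 and 102 CPM in the 3 libraries. Against normal skin, 2 clock genes were higher and 10 lower in acellular 15 mm skin (30.2% of all genes called in that comparison), with the same counts in HDB 10 mm skin (12.3% called). Between HDB 15 mm and acellular 15 mm skin, the lowest edgeR adjusted p of a clock gene was 0.328 (2.93% of all genes called), and Per1 differed by 0.22 on the log2 scale. The hour of the day at which each sample was taken is not given in the sources used here, so wounding and hour cannot be told apart.

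Hair shaft genes had the widest spread among HDB libraries of any list, with a standard deviation of 1.56 in mean log2 CPM. In normal skin, the 24 hair shaft keratins and keratin-associated proteins tested summed to 10.05, 6.16 and 8.519 CPM. In HDB skin the sums were 718.9, 107.5 and 89.11 CPM, so all HDB libraries lay above normal skin and replicate 1 alone stood well above the others. The list median of fitted log2 fold changes was 7.79, and 6.18 with the 16 genes of 3 or fewer counts in the normal group set at that floor. These 16 genes, and others with few normal counts such as Krt84, passed the filter on low counts only through wound groups in which they were high, so the direction and median of the list were largely fixed by the filter. Of the 24 genes, Krt84 alone was called in the 5-group fit (2.67% of all genes were called higher), and 14 of 19 tested with the 2 groups were called higher (11.6% of all genes). The called genes had few normal counts, so with their direction fixed by the filter these counts are no test against those shares. Krt84 (chr15:101525026-101532820), a hard keratin, had 83.1, 15.6 and 17.3 CPM in HDB skin against 0.141, 0 and 0.134 CPM, which is 4 counts, in normal skin (log2 8.62, standard error 1.99, edgeR adjusted p = 0.0347). These keratins are near-identical copies between which the counting may share reads, so that values of single members are uncertain.

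The inner root sheath and hair matrix list had a median of 3.44, with 1 of 19 genes called higher in the 5-group fit (2.67% of all genes) and 15 with the 2 groups (11.6% of all genes). In this list 5 genes had 3 or fewer counts in the normal group, so that they passed the filter only through groups in which they were high, and their direction was fixed by it. The same holds for Krt27, Krt71 and Padi3, with 6, 4 and 9 normal counts. Calls of these genes are therefore no test against the share of all genes. Tchh, the trichohyalin of the sheath, was at 127, 38.4 and 34.7 CPM against 5.34, 5.69 and 5.23 CPM and was not called in the 5-group fit (edgeR adjusted p = 0.185). Hoxc13, a regulator of hair keratin genes, rose from 3.79, 3.88 and 3.15 CPM to 54.0, 18.1 and 45.7 CPM (log2 3.44, standard error 0.90, edgeR adjusted p = 0.0481). Replicate 2 was the lowest HDB library for Hoxc13, still well above normal skin. Gata3, which also marks the sheath, was at 127, 65.4 and 114 CPM against 122, 93.5 and 98.9 CPM, with overlapping groups.

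Follicle stem cell and outer root sheath genes gave 3 higher calls among 15 (2.67% of all genes were called higher), and 9 with the 2 groups (11.6%). Lgr5 (chr10:115450314-115587780), a receptor that marks cycling follicle stem cells, was at 85.3, 35.4 and 93.0 CPM in HDB skin and 7.17, 10.2 and 9.79 CPM in normal skin (log2 2.97, standard error 0.51, edgeR adjusted p = 0.0162). Sox9, a transcription factor of the follicle, had 102, 43.6 and 121 CPM against 25.2, 26.3 and 22.9 CPM (log2 1.84, standard error 0.44), and Dkk3, a secreted Dickkopf family protein, had 102, 87.4 and 158 CPM against 45.0, 44.2 and 48.4 CPM (log2 1.33, standard error 0.28). In all of them HDB replicate 2 was the lowest HDB library and no HDB value reached down to normal skin. Krt15, the bulge keratin with the most counts in the list, was at 3702, 1713 and 3898 CPM against 1920.2, 1359 and 1486 CPM, overlapped between the groups and was not called.

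In the dermal papilla list, 1 of 15 genes rose and 1 fell (2.67% and 2.51% of all genes). Corin (chr5:72299948-72504540), a serine protease of the papilla, had 14.1, 12.5 and 23.4 CPM against 1.12, 1.14 and 1.34 CPM (log2 3.78, standard error 0.72, edgeR adjusted p = 0.0216), and Prom1 had 8.40, 7.94 and 5.36 CPM against 25.5, 17.2 and 20.2 CPM (log2 -1.53, standard error 0.32). Sebaceous gland genes gave 1 call among 17, near the 5.18% of all genes, the lipid synthesis enzyme Gpam, which was lower (log2 -0.93, standard error 0.21), while Scd1 ranged over 5549, 9514 and 3875 CPM against 4769.6, 7409.6 and 3157 CPM with overlapping groups. Other genes among the strongest rises were AU018091 with 637 counts in the HDB group and 1 count in the normal group (a ratio of 543, 95% counting interval 97.1 to 21480, and 181 with the normal count set at the floor of 3), and Pinlyp, a gene of the LY6 and PLAUR domain family, at 199, 51.6 and 149 CPM against 0.843, 0.937 and 1.01 CPM. Prr9, a proline-rich epidermal gene, had 41.6, 19.6 and 22.9 CPM against 0.141, 0.201 and 0.268 CPM.

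**Figure D3:**
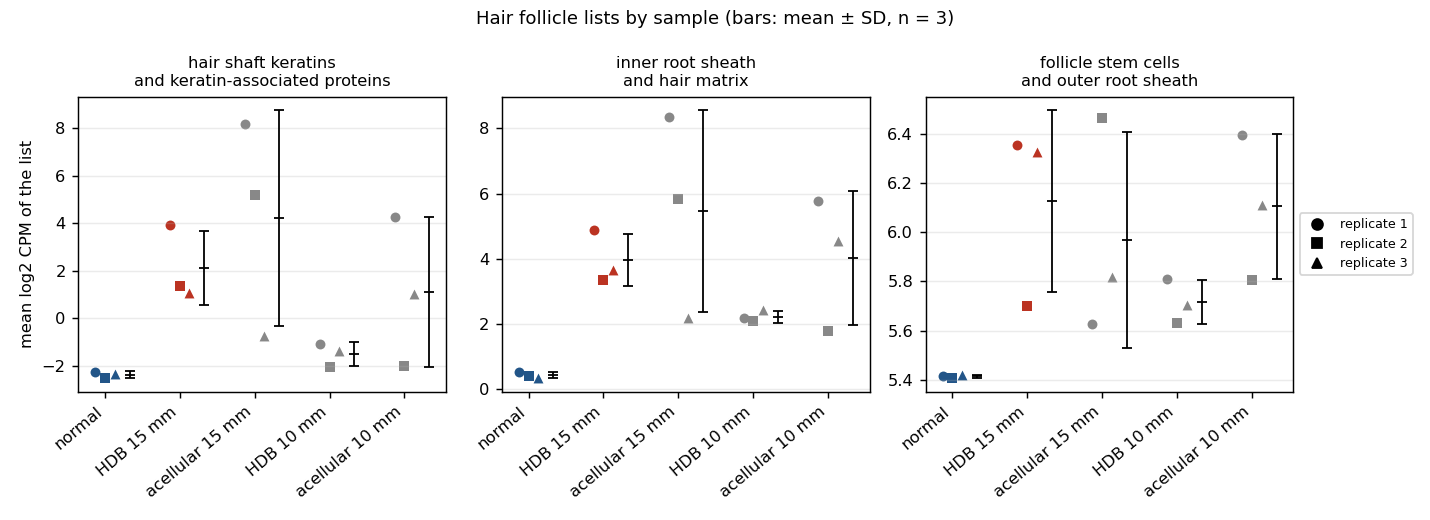
Mean log2 CPM over the genes of 3 hair follicle lists in each of the 15 libraries (marker shape, replicate number; bars, mean ± SD, n = 3; vertical axes differ between panels). The HDB 15 mm libraries (red) lie above the normal libraries (blue) in each panel, and acellular 15 mm libraries spread over a wider range than either. In the hair shaft and inner root sheath lists, genes with few normal counts passed the filter only through groups in which they were high.

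Among the wound groups the follicle lists varied strongly. The hair shaft list had a mean log2 CPM of 2.11 ± 1.56 in HDB 15 mm skin, 4.23 ± 4.54 in acellular 15 mm skin, -1.51 ± 0.496 in HDB 10 mm skin, 1.10 ± 3.15 in acellular 10 mm skin and -2.37 ± 0.135 in normal skin (SD, n = 3 each). The spread of the acellular 15 mm libraries alone covered the HDB 15 mm values. Between HDB and acellular 15 mm skin, the lowest edgeR adjusted p was 0.124 among hair shaft genes and 0.0775 among inner root sheath genes. A difference in the number of follicles in growth and one in RNA per follicle cannot be told apart in bulk skin, which holds for every cell type named here. Without HDB replicate 2, edgeR called 2 hair shaft, 1 inner root sheath, 8 follicle stem cell, 2 dermal papilla and 1 sebaceous gland genes (1340 of all genes). Leaving out any other library left 0 calls in these lists, except 1 follicle stem cell gene without normal replicate 2.

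The wound-activated keratinocyte list had a median log2 fold change of 1.22, with 2 higher calls among 20 (2.67% of all genes were called higher), and 7 higher and 1 lower of 17 tested with the 2 groups (11.6% and 11.3% of all genes). In this list 3 genes had 3 or fewer counts in the normal group. Krt16 (chr11:100246091-100248902), a stress keratin of injured epidermis and of the follicle, was at 281, 97.5 and 353 CPM in HDB skin and 5.34, 3.28 and 2.55 CPM in normal skin (log2 6.03, standard error 1.15, edgeR adjusted p = 0.0216). The related Krt17 had 1493, 642 and 1299.5 CPM against 308, 355 and 293 CPM (log2 1.85, standard error 0.48, edgeR adjusted p = 0.0470). Both were lowest in HDB replicate 2 and clear of normal skin in all HDB libraries. Krt6a, of the same response, had 735, 319.7 and 905 CPM against 198, 123 and 89.0 CPM and was not called in the 5-group fit (edgeR adjusted p = 0.0708).

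Of the differentiated epidermis, 1 of 34 genes in the cornified envelope list and 2 of 22 in the barrier lipid list fell and 0 rose, which together is near the 5.18% of all genes called. When only the 2 groups were fitted, 10 and 6 were lower (11.3% of all genes) and 1 in each list was higher (11.6% of all genes), and the median log2 fold changes were -0.41 and 0.0021. Dmkn, the secreted keratinocyte protein dermokine, was at 344, 214 and 385 CPM against 612, 633 and 849 CPM (log2 -1.15, standard error 0.28, edgeR adjusted p = 0.0372). Sdr9c7, which acts on the ceramides of the barrier, had 5.60, 4.30 and 5.14 CPM against 19.04, 15.7 and 23.0 CPM (log2 -1.94, standard error 0.44), and the fatty acid elongase Elovl1 had 67.5, 58.4 and 67.8 CPM against 92.5, 103 and 114 CPM (log2 -0.67, standard error 0.14). The suprabasal keratin Krt10 was at 912, 629 and 799 CPM against 1378, 1562 and 1921 CPM and the basal keratin Krt5 at 6612, 3333 and 5590.5 CPM against 3046, 2284 and 2225 CPM. Neither was called in the 5-group fit, and the groups did not overlap in either. Skint11, of an epidermal gene family with close copies, fell from 5.06, 5.09 and 10.5 CPM to 0.514, 0.303 and 0.678 CPM (log2 -3.77, standard error 0.73). The calls of these 3 lists were lost without HDB replicate 1, HDB replicate 3 or any 1 normal library, and without HDB replicate 2 there were 4 wound-activated, 1 barrier lipid and 0 cornified envelope calls.

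Matrix remodelling genes included Lrrc15, Adamts4, Tnc and Adam12, whose calls held in every setting tried. Of 27 matrix proteases and inhibitors, 6 rose and 1 fell, and of 24 matricellular genes 2 rose, against 5.18% of all genes called. With the 2 groups these were 9 higher and 1 lower, and 7 higher and 3 lower, against 11.6% of all genes called higher and 11.3% lower. Lrrc15 (chr16:30269302-30283254), a leucine-rich repeat protein of activated fibroblasts, was at 95.5, 75.1 and 169.6 CPM in HDB skin and 1.83, 2.01 and 1.48 CPM in normal skin. The lowest HDB library lay far above all normal libraries, for a log2 fold change of 5.996 (standard error 0.60) and an edgeR adjusted p of 0.00189. Tnc (chr4:63959785-64047015), the provisional matrix protein tenascin C, had 80.4, 99.3 and 97.7 CPM against 13.3, 9.31 and 8.72 CPM (log2 3.14, standard error 0.34, edgeR adjusted p = 0.00214). Postn, which encodes periostin, had 986, 1238 and 1566 CPM against 328, 466 and 408 CPM (log2 1.66, standard error 0.31, edgeR adjusted p = 0.0216). The HDB values of Tnc varied little, whereas replicate 3 was the highest HDB library for Lrrc15 and Postn.

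Among proteases, Adamts4 (chr1:171250129-171262267), an aggrecanase that cleaves proteoglycans, was at 15.9, 19.5 and 25.5 CPM against 0.843, 0.603 and 0.604 CPM (log2 4.88, standard error 0.66, edgeR adjusted p = 0.00623). Adam12 (chr7:133883199-134225097), a membrane protease of activated mesenchyme, had 47.0, 53.8 and 69.5 CPM against 6.46, 10.4 and 5.37 CPM (log2 2.94, standard error 0.38, edgeR adjusted p = 0.00589). Mmp11, the matrix metalloproteinase stromelysin 3, had 248, 201 and 374 CPM against 6.74, 9.71 and 10.3 CPM (log2 4.94, standard error 0.97, edgeR adjusted p = 0.0235). In these genes every HDB library exceeded every normal library several times over. Mmp14, a membrane-bound collagenase, rose by 1.52 on the log2 scale, and Plat, the tissue plasminogen activator, by 0.89. Of the inhibitors, Timp1 rose from 2.18, 2.21 and 1.61 CPM to 7.31, 12.8 and 15.0 CPM (log2 2.55, standard error 0.64), whereas Timp3 had 311, 291 and 297 CPM against 497, 518 and 492 CPM and fell (log2 -0.74, standard error 0.17, edgeR adjusted p = 0.0357).

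**Figure D4:**
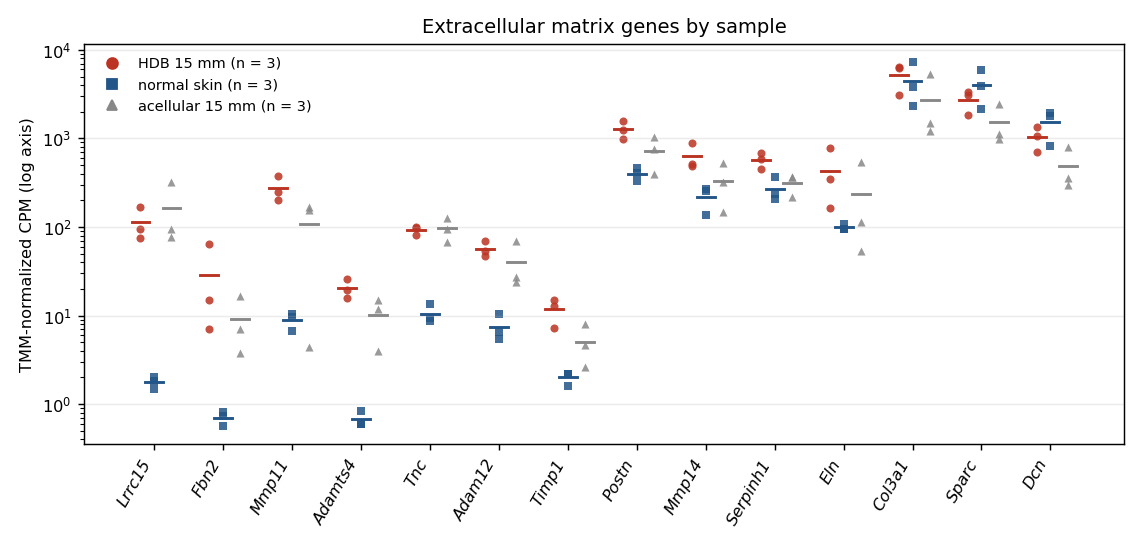
CPM on a log axis for 14 extracellular matrix genes in HDB 15 mm (circles), normal (squares) and acellular 15 mm (triangles) libraries, with group means as bars. The first 11 genes lie higher in all HDB libraries than in all normal libraries, whereas Col3a1, Sparc and Dcn overlap between HDB and normal skin.

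Of 22 fibrillar and associated collagen genes, 19 had a higher fitted level in HDB skin, with a median log2 fold change of 0.57. The groups did not overlap in 6, a lower share than the 46.4% of all genes. By edgeR 0 were called in the 5-group fit, where 8 had an unadjusted p under 0.05 (4133 of all 15369 genes), 6 were called higher and 0 lower with the 2 groups (22.9% of all genes in either direction), and 3 were called by DESeq2 (14.5% of all genes). Col3a1 was at 3111, 6408 and 6258 CPM in HDB skin and 2344, 7255 and 3780.5 CPM in normal skin, within the same range. Col1a1 had 1631, 2735 and 4019.7 CPM against 1591, 5915 and 3071 CPM, and normal replicate 2 was the highest library in both. In the collagen modification list 1 of 25 genes rose, near the 5.18% of all genes called, the collagen chaperone Serpinh1 at 449, 688 and 591 CPM against 209, 365 and 238 CPM (log2 1.09, standard error 0.26, edgeR adjusted p = 0.0366). The proteoglycan Dcn and the matricellular Sparc were not called and overlapped between groups.

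Of 16 elastic fibre genes, 2 rose (2.67% of all genes were called higher). Fbn2, a fibrillin of immature elastic fibres, was at 7.08, 15.1 and 64.5 CPM against 0.562, 0.737 and 0.805 CPM, a rise carried furthest by HDB replicate 3 (log2 5.35, standard error 0.97, edgeR adjusted p = 0.0211). Ltbp3, which holds latent TGF-beta in the matrix, had 156, 138 and 145 CPM against 96.3, 113 and 89.7 CPM (log2 0.56, standard error 0.14). Eln, which encodes elastin, had 164, 347 and 788 CPM against 93.7, 109 and 94.4 CPM and was called with the 2 groups (edgeR adjusted p = 0.0309) but not with 5 (edgeR adjusted p = 0.117). When each library was left out in turn, 2 to 5 protease, 1 to 3 matricellular, 0 to 2 elastic fibre and 0 or 1 collagen modification genes were called, with the 5, 3 and 2 without HDB replicate 2. In acellular 15 mm skin, Lrrc15 was at 163 ± 135 CPM, Tnc at 96.1 ± 29.0 CPM and Adamts4 at 10.2 ± 5.68 CPM (SD, n = 3), and between HDB and acellular 15 mm skin the lowest edgeR adjusted p was 0.166 among proteases and 0.151 among matricellular genes.

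Of 24 endothelial genes, 2 fell in the 5-group fit (2.51% of all genes were called lower), and 7 lower and 1 higher were called with the 2 groups (11.3% and 11.6% of all genes). The fitted level was lower in HDB skin for 22 of them, with a median log2 fold change of -0.84. Ptprb (chr10:116275502-116389538), the endothelial phosphatase that restrains TIE2, was at 37.8, 76.0 and 23.4 CPM in HDB skin and 161, 160.0 and 173 CPM in normal skin (log2 -1.85, standard error 0.45, edgeR adjusted p = 0.0383). Flt1 (chr5:147561604-147726438), which encodes VEGF receptor 1, had 23.0, 44.6 and 17.1 CPM against 90.5, 80.7 and 78.7 CPM (log2 -1.56, standard error 0.40, edgeR adjusted p = 0.0448). HDB replicate 2 was the highest HDB library for both and still lay under all normal libraries. Sele, an adhesion receptor for leukocytes on activated endothelium, fell from 5.83, 11.4 and 14.6 CPM to 1.89, 2.36 and 0.791 CPM (log2 -2.66, standard error 0.66).

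Pecam1, which encodes the endothelial protein CD31, was at 85.7, 139.8 and 57.3 CPM against 181, 189 and 198 CPM (log2 -1.01, standard error 0.38), with groups that did not overlap, and it was not called in either fit (edgeR adjusted p = 0.122 with 5 groups and 0.0501 with 2). Notch3, a receptor of pericytes and vascular smooth muscle, had 65.3, 73.0 and 48.6 CPM against 99.3, 93.0 and 91.2 CPM (log2 -0.60, standard error 0.14, edgeR adjusted p = 0.0372). Of the 117 named genes it alone was called between HDB and acellular 15 mm skin, with 106 ± 9.34 CPM in the latter (log2 -0.76, edgeR adjusted p = 0.0252). Without HDB replicate 2, 9 of 24 endothelial genes were called (1340 of all genes), and without any 1 of the other 5 libraries 0 were called. The lymphatic list gave 0 calls among 11 genes by edgeR with 5 groups, with 4 at an unadjusted p under 0.05 (4133 of all 15369 genes), 1 higher and 2 lower with 2 groups (near the 22.9% of all genes), and 3 by DESeq2 (14.5% of all genes).

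Skeletal muscle transcripts made up a smaller share of HDB skin. The 35 muscle genes tested took 10.05%, 8.07% and 9.09% of the TMM-scaled size of the normal libraries and 2.16%, 4.485% and 1.49% of that of the HDB libraries, so the groups did not overlap and HDB replicate 2 was nearest to normal. The TMM factors were 0.899 to 0.915 in normal and 0.985 to 1.04 in HDB libraries, so shares of raw counts differ from these. The median log2 fold change was -1.71, with 33 genes lower, 4 at an unadjusted p under 0.05 (4133 of all 15369 genes) and 0 called by edgeR in the 5-group fit (3 by DESeq2, which called 14.5% of all genes), in which the muscle share of other wound libraries on the same scale ranged from 0.128% to 6.06%. With only the 2 groups, 22 were called lower and 1 higher (11.3% and 11.6% of all genes). Acta1, skeletal actin, was at 3086, 6181 and 2347 CPM against 16286, 12981 and 14652 CPM (log2 -1.92, standard error 1.22, edgeR adjusted p = 0.328 with 5 groups and 0.0257 with 2). The part of this share in the other results was not tested.

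Among energy metabolism genes, 4 of 28 in the hypoxia and glycolysis list rose and 3 fell (2.67% and 2.51% of all genes). With only the 2 groups, 6 were called higher and 13 lower (11.6% and 11.3% of all genes), and the fitted level was lower for 19 of the 28, with a median log2 fold change of -0.50. Hk2 (chr6:82725025-82774454), the hexokinase of muscle and fat, was at 66.6, 107 and 57.8 CPM in HDB skin and 397, 224 and 273 CPM in normal skin (log2 -1.95, standard error 0.39, edgeR adjusted p = 0.0256). Gpi1 and Pdk1, a glycolytic isomerase and an inhibitor of pyruvate dehydrogenase, fell by 0.80 and 0.82 on the log2 scale. The platelet-type phosphofructokinase Pfkp rose from 73.6, 70.4 and 63.1 CPM to 154, 125 and 167 CPM (log2 1.11, standard error 0.25, edgeR adjusted p = 0.0338). Pfkl, Pgam1 and Eno1, glycolytic forms found outside muscle, rose by 0.55, 0.66 and 0.66, and their HDB libraries lay very close together. Of 39 nuclear-encoded oxidative phosphorylation genes 37 were lower, with a median of -0.52, 24 at an unadjusted p under 0.05 (4133 of all 15369 genes), 0 called by edgeR in the 5-group fit, 2 higher and 9 lower with the 2 groups (11.6% and 11.3% of all genes), and 12 called by DESeq2 (14.5% of all genes). Without HDB replicate 1, HDB replicate 3 or normal replicates 1 or 3, 0 glycolysis genes were called, with 2 without normal replicate 2 and 6 without HDB replicate 2 (134 and 1340 of all genes).

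Of 30 chemokine genes, 6 rose and 1 fell (2.67% and 2.51% of all genes), with a median log2 fold change of 1.55. Ccl2 (chr11:82035577-82037452), which attracts monocytes, was at 21.2, 20.4 and 20.3 CPM in HDB skin and 2.74, 3.55 and 2.48 CPM in normal skin (log2 2.82, standard error 0.56, edgeR adjusted p = 0.0244). The HDB libraries were nearly equal in Ccl2. Cxcl14, made by epithelium and fibroblasts, had 223, 139 and 196 CPM against 47.4, 56.8 and 33.5 CPM (log2 2.02, standard error 0.44). Ccl27a, a T cell attractant of keratinocytes whose copies may share reads, had 98.1, 49.7 and 101 CPM against 24.6, 17.8 and 22.0 CPM (log2 1.95, standard error 0.40). Ccl1 had 5 counts in the normal group and 2.46, 3.70 and 3.05 CPM in HDB skin (log2 4.67, standard error 0.88). The B cell attractant Cxcl13 fell from 5.83, 20.2 and 16.8 CPM to 4.34, 5.64 and 2.82 CPM (log2 -1.74, standard error 0.39), the only lower call of the list.

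Of 34 genes that respond to interferon, 2 rose and 3 fell (2.67% and 2.51% of all genes), with 4 each way in the 2-group fit, near the 11.6% and 11.3% of all genes. The T cell attractants Cxcl9 and Cxcl10 rose. Cxcl9 was at 24.3, 29.1 and 45.6 CPM against 4.15, 6.09 and 4.63 CPM (log2 2.73, standard error 0.71, edgeR adjusted p = 0.0464) and Cxcl10 at 6.23, 4.79 and 4.01 CPM against 0.632, 0.937 and 0.671 CPM (log2 2.73, standard error 0.67, edgeR adjusted p = 0.0384). The antiviral tetratricopeptide genes lay the other way. Ifit2 had 9.08, 12.4 and 10.3 CPM against 22.6, 24.0 and 22.9 CPM (log2 -1.13, standard error 0.25), and Ifit3 and its close copy Ifit3b, between which reads may be shared, fell by 1.36 and 1.85. These 2 chemokines belong to 5 MSC secretome genes that the study named for skin in these samples, so their direction is not independent evidence. Against normal skin, 3 of the 5 were also called higher in acellular 15 mm skin (30.2% of all genes called either way). Between HDB and acellular 15 mm skin, the lowest edgeR adjusted p of the 5 was 0.293 (2.93% of all genes called). The others of that list, Vcam1, Ccl5 and Il12b, were not called, with Il12b at 1.94, 3.21 and 3.44 CPM against 0.281, 0.335 and 0.537 CPM (log2 2.87, standard error 0.84, edgeR adjusted p = 0.0640 with 5 groups and 0.00889 with 2).

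Lists of macrophages, T cells, neutrophils and mast cells had median log2 fold changes of -0.56, 0.82, 0.17 and -0.30. In the T cell list 15 of 19 genes had a higher fitted level in HDB skin, and 9 had groups that did not overlap, near the 46.4% of all genes. By edgeR in the 5-group fit, 0 of 22 macrophage genes, 0 of 19 T cell genes, 0 of 9 neutrophil genes and 0 of 10 mast cell genes were called, 5, 1, 1 and 1 had an unadjusted p under 0.05 (4133 of all 15369 genes), and with the 2 groups 3, 5, 2 and 1 were called (22.9% of all genes). DESeq2 called 4, 0, 0 and 1 (14.5% of all genes). Cd68, a lysosomal protein of macrophages, was at 21.3, 30.3 and 29.4 CPM against 18.5, 27.0 and 16.4 CPM, and Cd3e, a chain of the T cell receptor complex, at 2.57, 3.40 and 5.36 CPM against 6.04, 3.75 and 3.56 CPM, with overlap in both. Fcna, a ficolin of macrophages, fell from 8.57, 43.4 and 24.6 CPM to 3.14, 6.67 and 3.84 CPM (log2 -2.49, standard error 0.50, edgeR adjusted p = 0.0258), and Ifitm6 from 8.22, 12.5 and 16.2 CPM to 0.857, 1.27 and 0.395 CPM (log2 -3.86, standard error 0.64). Of 13 B cell genes listed, 8 were in the table and 4 passed the filter on low counts, and Mzb1, of plasma cells, was under 2 CPM in all 6 libraries and lower in HDB skin. The chemokine calls numbered 0 without HDB replicate 1, HDB replicate 3 or normal replicates 2 or 3, 1 without normal replicate 1 and 8 without HDB replicate 2 (1340 of all genes), and the interferon calls 5 without HDB replicate 2 and 0 without any other library.

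In the cell cycle and DNA replication list 4 of 34 genes rose in the 5-group fit (2.67% of all genes were called higher), and 24 higher and 1 lower were called with the 2 groups (11.6% and 11.3% of all genes). The median log2 fold change was 1.21, and the fitted level was higher for 29 genes. Ube2c, the ubiquitin-conjugating enzyme of mitotic exit, was at 23.1, 17.9 and 23.8 CPM in HDB skin and 4.50, 3.88 and 4.90 CPM in normal skin (log2 2.29, standard error 0.55, edgeR adjusted p = 0.0374). Ccnb1, which encodes cyclin B1, had 23.9, 21.6 and 20.4 CPM against 6.53, 6.03 and 4.96 CPM (log2 1.91, standard error 0.51), and Cdc20 and Cenpa, of chromosome segregation, rose by 2.03 and 1.78. Mki67, which encodes the proliferation marker Ki-67, was at 101, 98.8 and 91.3 CPM against 44.8, 45.2 and 38.0 CPM with no overlap (log2 1.19, standard error 0.53), and was called with the 2 groups (edgeR adjusted p = 0.00407) but not with 5 (edgeR adjusted p = 0.178). Without HDB replicate 2, 3 genes of the list were called (1340 of all genes), and without any 1 of the other libraries 0 were.

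Of 23 immediate-early genes 3 rose (2.67% of all genes were called higher), and with the 2 groups 8 were called higher and 4 lower (11.6% and 11.3% of all genes). The 3 were Junb (144, 97.2 and 145 CPM against 62.2, 62.1 and 48.2 CPM, log2 1.16, standard error 0.27), Egr2 (log2 1.22, standard error 0.27) and Ier2 (log2 1.03, standard error 0.27), all of which encode transcriptional regulators induced within minutes of a stimulus. In the Wnt list 2 of 43 genes rose, the receptor Fzd6 at 147, 84.1 and 139.6 CPM against 63.2, 52.6 and 59.8 CPM (log2 1.08, standard error 0.24) and Dkk3 given above. In the TGF-beta and BMP list 2 of 39 rose, Inhbb, an activin subunit, at 111, 55.8 and 101 CPM against 20.6, 35.6 and 22.1 CPM (log2 1.77, standard error 0.44) and Id2, a target of BMP signals (log2 0.92, standard error 0.20). The Wnt and TGF-beta shares are near the 5.18% of all genes called in either direction. Hedgehog genes gave 0 calls among 13 by edgeR with 5 groups, with 3 at an unadjusted p under 0.05 (4133 of all 15369 genes), 3 with 2 groups (22.9% of all genes) and 1 by DESeq2 (14.5%). Without HDB replicate 2, edgeR called 4 immediate-early, 5 Wnt and 4 TGF-beta and BMP genes (1340 of all genes), and 0 of each without any other library.

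Hox genes, which encode position along the body, gave 4 higher and 2 lower calls among 29 (2.67% and 2.51% of all genes). They are laid out in 4 clusters, with high-numbered groups used toward the tail and in the hindlimb, and this list was chosen after its values were seen. All 7 tested genes of groups 9 and 10 were lower in HDB skin, with a median log2 fold change of -1.56, of which 2 were called in the 5-group fit and 6 with the 2 groups alone (11.3% of all genes were called lower). The 21 genes of groups 1 to 8 had a median of 0.13, with 3 higher and 0 lower calls, and 4 higher and 2 lower with the 2 groups alone (11.6% and 11.3% of all genes). The difference between the paralogue groups was not tested. Hoxc10 (chr15:102966796-102971898) was at 0, 0 and 0.339 CPM in HDB skin, 6 counts in all, and 6.60, 4.08 and 7.31 CPM in normal skin (log2 -5.62, standard error 1.09, edgeR adjusted p = 0.0232). Hoxa9 had 3.66, 7.09 and 6.38 CPM against 32.3, 22.7 and 34.5 CPM (log2 -2.38, standard error 0.52, edgeR adjusted p = 0.0313). Normal skin was above HDB skin in all libraries for both genes.

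Hoxb4 (chr11:96318267-96321638) lay on the other side at 13.9, 11.5 and 11.4 CPM against 5.90, 5.42 and 6.77 CPM (log2 1.02, standard error 0.21, edgeR adjusted p = 0.0258), and Hoxb2 and Hoxb6 rose by 1.13 and 1.09. Pitx1 (chr13:55825044-55836190), a homeobox gene known for hindlimb identity, was at 0, 0.242 and 0.226 CPM, 8 counts in all, against 5.55, 4.08 and 6.37 CPM (log2 -5.04, standard error 1.14, edgeR adjusted p = 0.0336). In acellular 15 mm and HDB 10 mm skin, Hoxa9 was at 3.52 ± 1.82 and 6.25 ± 5.07 CPM, and in acellular 10 mm skin at 3.77, 4.89 and 6.55 CPM, near the HDB 15 mm level. Between HDB and acellular 15 mm skin, the lowest edgeR adjusted p of a Hox gene was 0.0775. Without HDB replicate 2, 8 Hox genes were called (1340 of all genes), without HDB replicate 3, 1, and without any of the other libraries 0. The wounds lay along the dorsal midline, but where along it, and where the normal skin was taken, is not given in the sources used here, so wounding and position cannot be told apart.

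**Figure D5:**
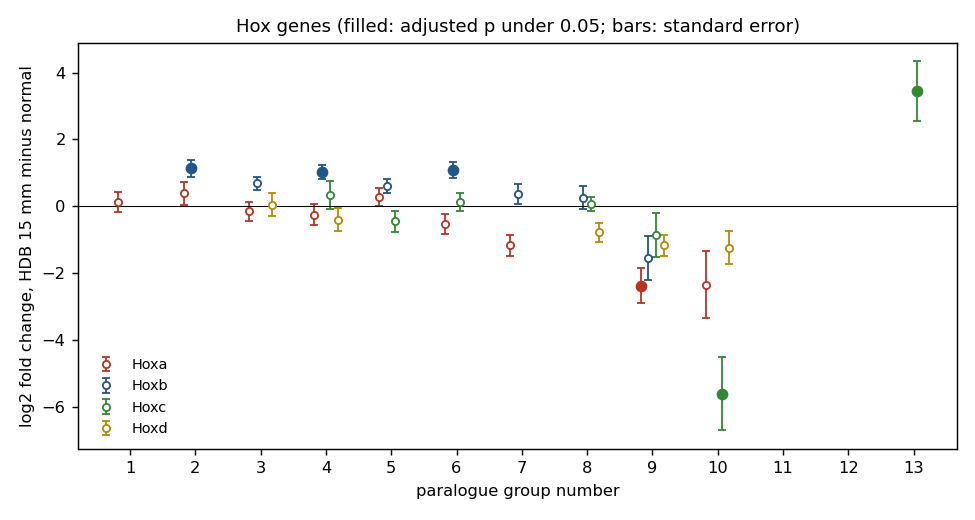
Log2 fold change between HDB 15 mm and normal skin for the 29 Hox genes tested, by paralogue group number and coloured by cluster (filled points, adjusted p under 0.05 in the edgeR fit over 5 groups; bars, standard error). Points of groups 9 and 10 lie under zero, while Hoxb genes of low groups and Hoxc13, a hair follicle gene, lie above it.

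Of the remaining genes that the naming rule selected, Slc5a5, the sodium iodide transporter, had 4 counts in the normal group against 10.1, 3.46 and 8.87 CPM in HDB skin (log2 6.25, standard error 1.51, edgeR adjusted p = 0.0380). Slc38a5, an amino acid transporter, had 317 counts in the HDB group and 2 in the normal group, a ratio of 135.1 (95% counting interval 37.1 to 1120.0, counting error only, and 90.1 with the normal count set at the floor of 3). Scrg1 had 10.2, 3.21 and 10.1 CPM against 0.632, 0.134 and 0 CPM. Snai3, a transcription factor of the Snail family found in skeletal muscle, fell from 49.0, 8.64 and 13.6 CPM to 1.43, 2.36 and 0.791 CPM (log2 -3.96, standard error 1.05, edgeR adjusted p = 0.0499), with normal replicate 1 far above the other libraries. Fgf9, a fibroblast growth factor, had 1.14, 0.727 and 1.47 CPM against 4.57, 5.89 and 7.45 CPM (log2 -2.41, standard error 0.54). The groups did not overlap in any of these genes, which was a condition of their selection.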

How the data were processed

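Polyadenylated RNA of mouse skin was sequenced, and the authors deposited 1 table of 18929 genes with an estimated count per gene and sample, not normalized. Per the submitters' processing notes, HISAT2 2.0.4, Bowtie2 2.2.5, RSEM 1.2.12 and GRCm38.p6 were used, with no roles or strand setting given. Estimated counts divide reads between near-identical copies, so values of such genes are uncertain, and overlapping genes cannot be told apart.

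Estimated counts were rounded. In R 4.3.3, edgeR 4.0.16 was applied with TMM, filterByExpr, which kept 15369 genes, and quasi-likelihood tests on a model with 1 mean for each of the 5 groups (15 libraries), with Benjamini-Hochberg adjustment over all genes tested and a threshold of 0.05. Standard errors were derived from the F statistic (log2 fold change over the root of F). The scripts were tested on simulated data. The members, the 43 gene lists, the promoter motifs and the naming rule were chosen with earlier results of these data known.

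Genes named were the 12 most risen and 12 most fallen called genes of at least 5 CPM in the higher group with no overlap, up to 4 called genes per list with the smallest adjusted p, the gene of each list with the most counts, Mki67, Pecam1, Cd68, Cd3e and 5 secretome genes. Predicted genes were passed over among the most changed. Other members of a list are named as examples, after their values were seen. Alternatives were DESeq2 1.42.0, other scalings and filters, only the 2 groups, removal of length or GC trends, the replicate block and leaving out each library. Some genes that the rule names are not reported here. Positions and promoters came from RefSeq. Intervals and floors (3 counts over a group) cover counting error only.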

Additional observations from a re-analysis of the deposited data

How the results depend on the processing

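The number of genes called, 796 by edgeR, was 3401 with only the 2 groups compared, 2349 by DESeq2 (4418 by DESeq2 with only the 2 groups), 237 with the replicate block, 285 with the block and the length trend removed, 2419 with the block and only the 2 groups, and 392 when a log2 fold change of 1 or more either way was required. With RLE size factors, no filter, a mean count of at least 50, or the length or GC trend removed it was 869, 624, 939, 855 and 896. When each library was left out in turn it ranged from 34 (without normal replicate 3) to 1340 (without HDB replicate 2). With only the 2 groups it was 191 to 5530 over the same libraries, and 2419 with the block. Same-numbered HDB and normal libraries had deviations correlated at 0.115, 0.136 and 0.0158, and HDB replicate 3 was closest to normal replicate 1 (0.0772), so the numbers were not taken to pair the samples. Of the 71 named genes called, all kept their direction in every setting tried, which for groups that do not overlap is no sign of stability. The block left 31 of them called, and of all 117 named genes 7 to 64 were called when 1 library was left out.

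Direction changed only in named genes that were not called. Over the libraries left out in turn, the log2 fold change ranged from -0.22 (without HDB replicate 1) to 0.21 (without HDB replicate 2) for Gata3, which was 0.10 without normal replicate 1, from -0.12 (without HDB replicate 2) to 0.67 for Scd1, and from -0.059 (without normal replicate 1) to 0.78 for Col3a1. It ranged from -0.56 to 0.17 (without normal replicate 2; 0.014 without HDB replicate 3) for Dpt, from -0.80 to 0.19 (without normal replicate 2; 0.16 without HDB replicate 3) for Cfd, and from -0.24 to 0.029 (without normal replicate 2) for Pmp22. For Cd3g it was -0.15 (without HDB replicate 3) to 0.52, for Csf3r -0.030 (without HDB replicate 3) to 0.47 and for Cd3e -0.58 to 0.061 (without normal replicate 1). Rps2 became -0.026 with the length trend removed and -0.029 with the block as well. The cause of these changes was not tested.

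Called genes lower in HDB skin had a median transcript length of 4399 bases, those higher 3090, and genes not called 3324. With 3 libraries a group at 15840551 to 17042219 counts, genes of few counts in normal skin, such as hair keratins, have no bounded fold change, and a gene that misses the threshold is not shown to be equal between the groups.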

Other observations

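Fat, pigment and antigen presentation genes were also read in the 6 libraries. Of 21 adipocyte genes 19 were lower in HDB skin, with a median log2 fold change of -0.47, 2 at an unadjusted p under 0.05 and 0 called by edgeR with 5 groups or by DESeq2. Adipoq, the fat hormone adiponectin, was at 435, 608 and 147 CPM in HDB skin and 219, 703 and 330.2 CPM in normal skin. HDB replicate 3 was the lowest of the 6 libraries and the groups overlapped. Of 14 melanocyte genes 12 were higher, with a median of 0.90, 1 at an unadjusted p under 0.05 and 0 called by edgeR with 5 groups or by DESeq2, and 4 with the 2 groups (22.9% of all genes). Tyrp1, a melanin enzyme, had 44.3, 32.9 and 37.6 CPM against 13.3, 22.3 and 8.45 CPM, with no overlap. Of 20 genes of MHC class II and antigen presentation 18 were higher, with a median of 0.35, 0 at an unadjusted p under 0.05, 0 called by edgeR with 5 groups or by DESeq2, and 6 with the 2 groups (22.9% of all genes).

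The median log2 fold change of complement genes was -0.47, with 2 of 20 at an unadjusted p under 0.05, 0 called by edgeR with 5 groups and 2 by DESeq2 (14.5% of all genes). C3, the central complement component, was at 181, 531 and 125 CPM in HDB skin against 192, 803 and 551 CPM in normal skin, and each group spanned a wide range. In the myelin list 1 of 17 genes rose, near the 5.18% of all genes called, the transcription factor Egr2, which is also counted among the immediate-early genes.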
